A study of Mus musculus with 13 samples.

Results

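The 10 genes described here are parts of the circadian clock or are driven by it: Bmal1, Clock, Per1, Per2, Cry1, Nr1d1, Nr1d2, Dbp, Tef and Klf9. They were chosen by name, and all 10 were measured among the 12393 genes of the series. Each gene is represented by its probe set with the highest mean over 13 arrays, among probe sets that the array annotation ties to a single gene symbol. Bmal1 appears in that annotation under its older symbol Arntl.

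Total RNA was taken from the duodenum of mice of a mixed strain background, 1 array per sample. Wild-type mice and mutant mice, which the labels call ViRas and which carry an oncogenic Ras mutation, were compared on 3 diets. In the published line the mutation is switched on by a Cre recombinase under the villin promoter, which is active in intestinal epithelium and not in the other cells of the gut wall. Diets began at 5 weeks of age and lasted 22 weeks. The normal diet had 2 wild-type and 3 mutant arrays. The high-fat diet had 2 wild-type and 2 mutant arrays. High-fat diet plus butyrate, a fatty acid that gut bacteria produce from fibre, had 1 wild-type and 3 mutant arrays. Nothing in the labels gives the time of day at which the tissue was taken. Levels are the authors' RMA values on a log2 scale, so a difference of 1 stands for a 2-fold change in signal. Precision is limited by how few arrays each group has.

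The clock is a feedback loop that runs in nearly every cell. BMAL1 and CLOCK form a dimer that binds E-boxes and switches on the Per and Cry genes, whose proteins return to the nucleus and repress that dimer. The same dimer switches on Nr1d1 and Nr1d2, which encode the REV-ERB repressors, and these shut off Bmal1 and damp Cry1. DBP and TEF are transcription factors of the PAR bZIP family that carry the rhythm to output genes through D-boxes. KLF9 is a zinc-finger factor that responds to glucocorticoids and to the clock. In the intestine the clock times nutrient transport and cell division and is reset by feeding. Bmal1 and Nr1d1 normally peak at nearly opposite times of day, and Per2 and Cry1 reach their peaks after Nr1d1. The level of such a gene in 1 sample depends on the time of day.

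Promoters of 9 of the 10 genes were matched in RefSeq (GRCm38.p6), as 14 windows from 250 bases before to 50 bases after a start site. Per2 was not matched. The windows were searched on both strands for an E-box (CACGTG), an E-prime box (CACGTT, which reads AACGTG on the other strand), D-boxes (TTATGTAA or TTACGTAA), the element bound by ROR and REV-ERB (TAGGTCA) and a palindromic glucocorticoid response element. The 3 windows below were taken because Cry1 and Nr1d1 were among the genes that differed most between groups and Bmal1 normally peaks at the opposite time of day to Nr1d1. Capitals mark the motifs found. The window of Cry1 is chr10:85185005-85185304 on the minus strand, that of Nr1d1 is chr11:98775328-98775627 on the minus strand, and the second window of Bmal1 is chr7:113207261-113207560 on the plus strand.
Cry1: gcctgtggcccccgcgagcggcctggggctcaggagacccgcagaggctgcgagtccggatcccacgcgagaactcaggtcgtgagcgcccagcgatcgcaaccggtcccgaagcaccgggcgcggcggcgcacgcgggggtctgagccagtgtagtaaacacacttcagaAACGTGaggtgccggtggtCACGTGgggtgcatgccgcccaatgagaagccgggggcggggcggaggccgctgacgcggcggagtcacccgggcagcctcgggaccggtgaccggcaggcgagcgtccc
Nr1d1: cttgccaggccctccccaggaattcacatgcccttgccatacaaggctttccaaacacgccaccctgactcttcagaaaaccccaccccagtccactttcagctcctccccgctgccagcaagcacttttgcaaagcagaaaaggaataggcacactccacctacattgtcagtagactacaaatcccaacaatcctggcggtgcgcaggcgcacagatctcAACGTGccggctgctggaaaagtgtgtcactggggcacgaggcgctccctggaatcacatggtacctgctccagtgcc
Bmal1: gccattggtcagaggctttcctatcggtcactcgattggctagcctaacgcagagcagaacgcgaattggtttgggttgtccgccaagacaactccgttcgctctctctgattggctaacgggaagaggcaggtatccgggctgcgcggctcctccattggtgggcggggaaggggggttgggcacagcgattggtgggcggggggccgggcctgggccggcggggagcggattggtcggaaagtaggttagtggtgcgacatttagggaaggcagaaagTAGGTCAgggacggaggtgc

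The Cry1 window holds an E-prime box at -79 and an E-box at -60, counted from the start site. The Nr1d1 window holds an E-prime box at -28. The Bmal1 window holds the ROR and REV-ERB element at +30. An E-box was also found in the Per1 window at -166 and in both Tef windows, at -127 and -138. Over 32851 promoter windows of the same length, 7.15% held the E-box, 4.68% the E-prime box and 2.61% the ROR and REV-ERB element. None of the 14 windows held a D-box, present in 1.06% of all windows, or the glucocorticoid response element, present in 0.475%. A match describes the letters in the window and does not show that a factor binds there.

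Across the 13 arrays, Nr1d1 had the widest range of the 10 genes, 2.94 on the log2 scale or 7.68-fold. Klf9 spanned 1.89, Cry1 1.88, Per2 1.64 and Bmal1 1.56. Tef had the narrowest range, 0.56, beside 0.62 for Per1 and 0.92 for Clock. The single wild-type butyrate array was the highest of all 13 for Bmal1, Clock, Per1, Per2 and Cry1, and the lowest for Nr1d1 and Dbp. The share of all genes highest or lowest on that array was not counted, so these extremes may not be particular to the clock genes.

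**Figure D1:**
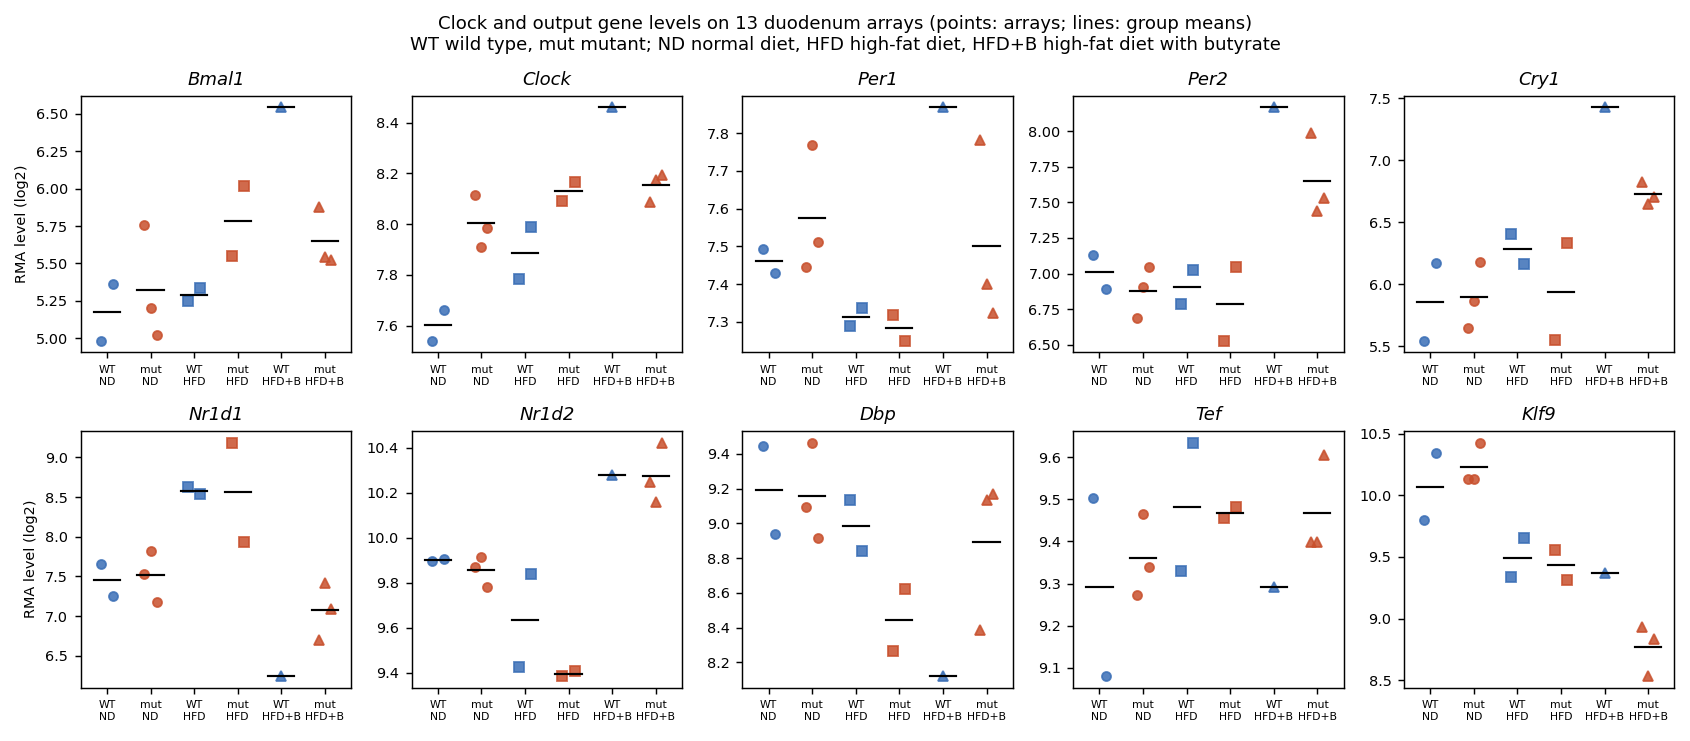
Level of each of the 10 genes on each of the 13 arrays (y axis, log2 RMA value, with its own scale per panel) by genotype and diet (x axis); points are arrays and black lines are group means. Per2, Cry1 and Nr1d2 were higher on all 4 butyrate arrays than on the other 9, Nr1d1 was highest on the 4 high-fat arrays, and Klf9 was highest on the 5 normal-diet arrays.

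Bmal1, the activator whose loss stops the clock, lay at 4.98 and 5.36 on the wild-type and 5.75, 5.20 and 5.02 on the mutant arrays of the normal diet. On the high-fat diet it lay at 5.25 and 5.34 in wild type and at 5.55 and 6.02 in mutants. On butyrate its level was 6.54 on the wild-type array and 5.88, 5.55 and 5.52 on the mutant arrays. The wild-type butyrate array stood above all others, and the other 5 groups overlapped in neighbouring pairs. No comparison of Bmal1 between groups passed the test (limma, adjusted p from 0.194 for high-fat against normal diet in mutants to 0.999 for the pooled genotype comparison).

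Clock, the partner of BMAL1, lay at 7.54 and 7.66 on the wild-type and 8.12, 7.91 and 7.98 on the mutant arrays of the normal diet. On the high-fat diet it lay at 7.78 and 7.99 in wild type and at 8.09 and 8.17 in mutants. With butyrate the wild-type array was at 8.46 and the mutant arrays were at 8.09, 8.17 and 8.20. Every mutant array was above every wild-type array within the normal diet and within the high-fat diet, whereas the mutant butyrate arrays were all below the wild-type one. The share of all genes so separated was not counted. On the weaker Clock probe set the genotypes overlapped on the normal diet, at 7.69 and 7.18 in wild type and 7.82, 7.67 and 7.68 in mutants. On the set used the difference on the normal diet was 0.40 ± 0.11 (SE; 2 against 3 arrays) and did not pass the test over all genes (limma, adjusted p = 0.169).

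Per1, a repressor that is also induced quickly by light, stress and glucocorticoids, varied little. It lay at 7.49 and 7.43 on wild-type and 7.45, 7.77 and 7.51 on mutant normal-diet arrays, and at 7.29 and 7.34 on wild-type and 7.32 and 7.25 on mutant high-fat arrays. The butyrate arrays gave 7.87 in wild type and 7.78, 7.40 and 7.32 in mutants. All 4 high-fat arrays were below all 5 normal-diet arrays, and the share of all genes with this order was not counted. The difference in mutants was -0.29 ± 0.15 (SE; 2 against 3 arrays; limma, adjusted p = 0.203).

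Per2, a core repressor whose loss shortens or abolishes the rhythm, was high with butyrate on the probe set used, though not on a weaker one. It lay at 7.13 and 6.89 on wild-type and 6.69, 6.90 and 7.05 on mutant normal-diet arrays, and at 6.79 and 7.02 on wild-type and 6.53 and 7.05 on mutant high-fat arrays. With butyrate it lay at 8.17 in wild type and at 7.99, 7.44 and 7.53 in mutants. The 4 butyrate arrays did not overlap the other 9, and the normal and high-fat groups overlapped each other. In mutants Per2 rose by 0.87 ± 0.20 (SE; 1.82-fold, 3 against 2 arrays) when butyrate was added to the high-fat diet (limma, adjusted p = 0.0111). Against the normal diet the difference was 0.77 ± 0.18 (SE; 3 against 3 arrays) and missed the threshold (limma, adjusted p = 0.0601).

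Cry1, the repressor that holds the BMAL1 and CLOCK dimer inactive late in the cycle, followed a like order. It lay at 5.54 and 6.17 on wild-type and 5.64, 5.86 and 6.18 on mutant normal-diet arrays, and at 6.40 and 6.16 on wild-type and 5.54 and 6.33 on mutant high-fat arrays. Under butyrate it reached 7.43 in wild type and 6.82, 6.65 and 6.70 in mutants. The 3 mutant butyrate arrays lay close together and above all 9 arrays of the other diets. Cry1 rose by 0.79 ± 0.25 (SE; 1.72-fold, 3 against 2 arrays) in mutants when butyrate was added (limma, adjusted p = 0.0431). The difference against the normal diet was 0.83 ± 0.22 (SE; 3 against 3 arrays; limma, adjusted p = 0.0894).

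Nr1d1, which encodes REV-ERB alpha and is among the strongest rhythmic transcripts of most tissues, moved the other way. It lay at 7.65 and 7.25 on wild-type and 7.53, 7.82 and 7.18 on mutant normal-diet arrays. On the high-fat diet it lay at 8.63 and 8.53 in wild type and at 9.19 and 7.94 in mutants. With butyrate it lay at 6.25 in wild type and at 6.70, 7.42 and 7.09 in mutants. All 4 high-fat arrays were above the other 9. The 2 mutant high-fat arrays differed from each other by more than any other group's arrays did, with an SD of 0.88 against 0.36 or less elsewhere. Nr1d1 rose by 1.05 ± 0.33 (SE; 2.07-fold, 2 against 3 arrays) from normal to high-fat diet in mutants (limma, adjusted p = 0.0472). That value rested on mutant high-fat array 1, without which it was 0.43 (limma, adjusted p = 0.418). Without mutant high-fat array 2 it was 1.67 (limma, adjusted p = 0.0106). In wild type the difference was 1.13 ± 0.36 (SE; 2 against 2 arrays) and missed the threshold (limma, adjusted p = 0.0674). In mutants Nr1d1 was 2.81-fold lower on the high-fat diet with butyrate than without it, a difference of -1.49 ± 0.33 (SE; 3 against 2 arrays; limma, adjusted p = 0.00839).

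Nr1d2 encodes REV-ERB beta, which shares targets with REV-ERB alpha, yet on the probe set used it did not follow Nr1d1. It lay at 9.89 and 9.91 on wild-type and 9.87, 9.92 and 9.78 on mutant normal-diet arrays, and at 9.43 and 9.84 on wild-type and 9.39 and 9.41 on mutant high-fat arrays. On butyrate its level was 10.28 in wild type and 10.25, 10.16 and 10.42 in mutants. The butyrate arrays were above all others, and the mutant high-fat arrays were the lowest. Nr1d2 fell by 0.46 on the log2 scale, with an SE of 0.12, from normal to high-fat diet in mutants (limma, adjusted p = 0.026). It rose by 0.88 ± 0.12 (SE; 1.84-fold, 3 against 2 arrays) when butyrate was added (limma, adjusted p = 8.27e-04), the smallest p of the 10 genes in that comparison.

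Dbp, the output gene most often read as a marker of clock phase, lay at 9.45 and 8.94 on wild-type and 9.10, 9.47 and 8.92 on mutant normal-diet arrays. On the high-fat diet it lay at 9.13 and 8.84 in wild type and at 8.27 and 8.62 in mutants. Butyrate arrays stood at 8.12 in wild type and at 8.38, 9.13 and 9.17 in mutants. The mutant high-fat arrays were below all 5 normal-diet arrays, and the mutant butyrate arrays overlapped every other group but the wild-type butyrate array. How many of all genes had this order was not counted. The difference between high-fat and normal diet in mutants was -0.72 ± 0.25 (SE; 2 against 3 arrays) and missed the threshold (limma, adjusted p = 0.0758).

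Tef, a relative of Dbp with a shallower rhythm, lay between 9.08 and 9.64 on all 13 arrays, and neighbouring groups overlapped throughout. On the probe set used none of its comparisons passed the test (limma, adjusted p from 0.471 for high-fat against normal diet in wild type to 0.997 for butyrate in mutants).

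Klf9, on the probe set used, separated the normal diet from the others. It lay at 9.80 and 10.34 on wild-type and 10.13, 10.13 and 10.43 on mutant normal-diet arrays, and at 9.34 and 9.65 on wild-type and 9.56 and 9.31 on mutant high-fat arrays. With butyrate it lay at 9.37 in wild type and at 8.93, 8.53 and 8.83 in mutants. All 5 normal-diet arrays were above the other 8, and the 3 mutant butyrate arrays were the lowest of all. In mutants Klf9 fell by 0.80 on the log2 scale, with an SE of 0.18, from normal to high-fat diet (limma, adjusted p = 0.0131). It fell by 0.67 on the log2 scale, with an SE of 0.18, from high-fat diet to high-fat diet with butyrate (limma, adjusted p = 0.0242). Between butyrate and normal diet the difference was -1.46 ± 0.16 (SE; 2.76-fold, 3 against 3 arrays; limma, adjusted p = 0.00257), rank 10 by p among all genes. In wild type the high-fat difference was -0.58 ± 0.20 (SE; 2 against 2 arrays; limma, adjusted p = 0.0912).

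The diet comparisons ask how a high-fat diet, and butyrate on top of it, change the duodenum. With butyrate added to the high-fat diet in mutants, 5 of the 10 genes passed the test, 3 higher (Per2, Cry1 and Nr1d2) and 2 lower (Nr1d1 and Klf9), where 21.7% of all genes passed, 12.9% higher and 8.78% lower. The median of the absolute differences was 0.56 over the 10 genes and 0.23 over all genes. From normal to high-fat diet in mutants, 3 of 10 passed, Nr1d1 higher and Nr1d2 and Klf9 lower, where 17.7% of all genes passed, 7.67% higher and 10.1% lower. These comparisons share the 2 mutant high-fat arrays, so a gene high on those arrays counts in both with opposite signs. Without mutant high-fat array 1, 1 of the 10 genes passed in each, and the butyrate differences were -0.87 for Nr1d1 (limma, adjusted p = 0.0868), 0.61 for Per2, 0.39 for Cry1 and -0.54 for Klf9. The genes that still passed were Nr1d2 with butyrate and Klf9 with the high-fat diet. In wild type no gene of the 10 passed between high-fat and normal diet on the probe set used, where 11.0% of all genes did. There 3 of 10 had an unadjusted p under 0.05, where 26.9% of all genes did. Weaker probe sets of Tef, Per2 and Klf9, with mean levels of 5.75, 5.37 and 3.91, did pass in wild type. They differed by 0.78, 0.68 and 1.44 (limma, adjusted p = 0.0241, 0.0419 and 9.11e-04). For Per2 and Klf9 this was opposite to the set used, at -0.11 and -0.58. Between the butyrate and the normal diet in mutants, Klf9 was the only one of the 10 that passed the test, where 1.57% of all genes did, 1.0% lower.

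**Figure D2:**
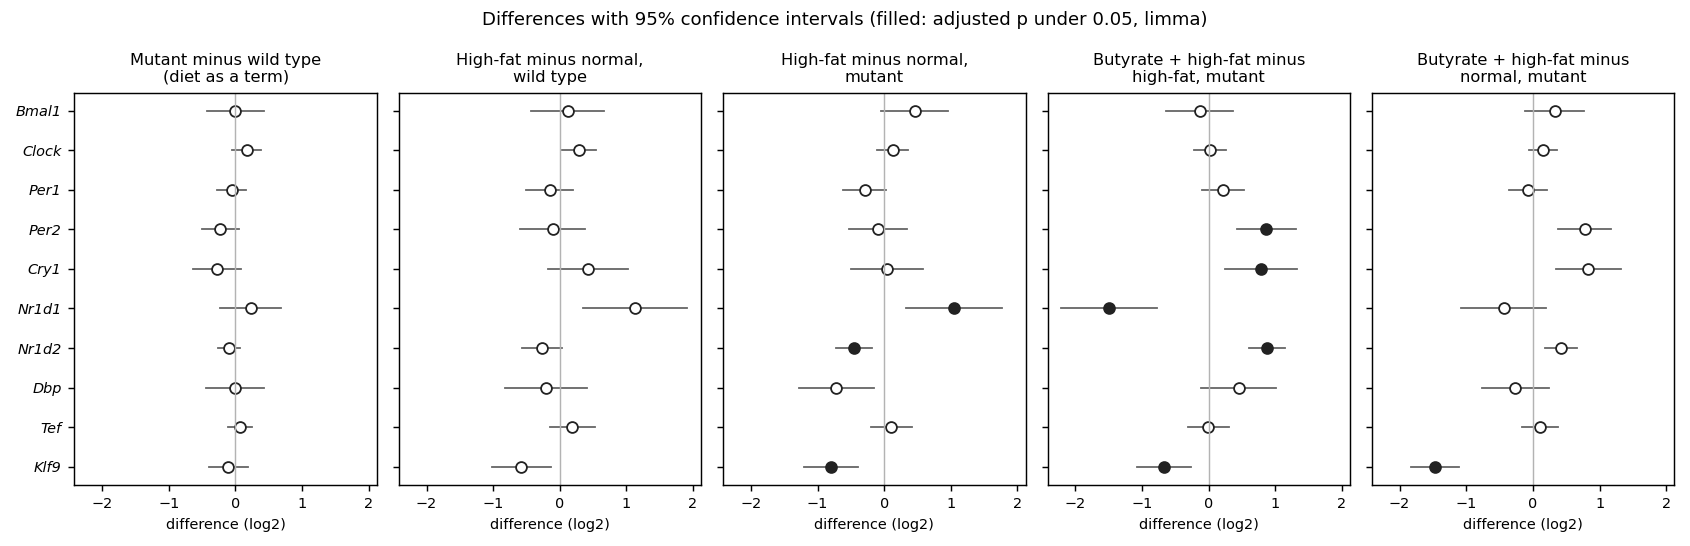
Difference between groups for each gene (x axis, log2, with 95% confidence interval from limma) in 5 comparisons; filled points have an adjusted p under 0.05. The filled points number 5 where butyrate was added to the high-fat diet in mutants, 3 for the high-fat against the normal diet in mutants, Klf9 alone for the butyrate against the normal diet, and none for genotype or for diet in wild type.

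Each diet was run as its own series of arrays by the array identifiers, so diet and array series cannot be told apart. Among all genes, 3.57% were higher on all 4 butyrate arrays than on the other 9, as Per2, Cry1 and Nr1d2 were. Another 6.31% were higher on all 4 high-fat arrays than on the other 9, as Nr1d1 was, and 1.27% were higher on all 5 normal-diet arrays than on the other 8, as Klf9 was. The difference between 3' and 5' probe sets for beta-actin, a sign of RNA integrity or labelling, was 0.63 to 0.73 on normal-diet, 0.20 to 0.42 on high-fat and 0.27 to 0.70 on butyrate arrays. The same difference for Gapdh was -0.13 to 0.22 over all arrays. The part of either in the diet differences was not tested.

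The genotype comparisons ask what the mutation does at a given diet. With diet as a term, 0 of the 10 genes passed the test (limma; 0 at an unadjusted p under 0.05), where 1.02% of all genes passed and 16.5% had an unadjusted p under 0.05. The largest of the 10 pooled differences were -0.28 ± 0.17 for Cry1 and 0.23 ± 0.21 for Nr1d1 (SE; 8 mutant against 5 wild-type arrays). Their 95% confidence intervals ran from -0.64 to 0.08 and from -0.23 to 0.69. For Bmal1 the interval ran from -0.43 to 0.43 and for Dbp from -0.44 to 0.44. Within the normal diet 0 of the 10 passed beside 0.0242% of all genes, and Clock alone had an unadjusted p under 0.05, where 12.7% of all genes did. Within the high-fat diet 0 passed beside 0.0403%, and 0 of the 10 had an unadjusted p under 0.05, where 11.3% of all genes did. The difference between these genotype effects passed for 0 of the 10 genes, beside 0.00807% of all genes, and 0 of them had an unadjusted p under 0.05, where 5.01% of all genes did.

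On butyrate the mutant arrays had a mean higher by 0.82 ± 0.41 for Nr1d1 and by 0.77 ± 0.32 for Dbp than the 1 wild-type array (SE from the fit, which assumes that this array varies like the other groups). They had lower means for Bmal1 by -0.90 ± 0.29, Cry1 by -0.70 ± 0.31, Klf9 by -0.60 ± 0.23, Per2 by -0.51 ± 0.25, Per1 by -0.37 ± 0.19 and Clock by -0.31 ± 0.14. Among the 10 genes, 1 higher and 4 lower differences had an unadjusted p under 0.05, where 6.04% of all genes did. None of the 10 passed after adjustment (limma, adjusted p from 0.815), and 0% of all genes passed.

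Within groups the arrays differed in an order that several of the genes shared. In 5 groups with more than 1 array, the array with the lowest Nr1d1 had the highest Per2 in 4, the highest Cry1 in 4, the highest Bmal1 in 4 and the highest Klf9 in 4. Over all genes, 6.98% had their highest level on the lowest Nr1d1 array in 4 or 5 of these groups. The count for Nr1d2 and for Clock was 3 of 5, for Tef and Per1 2 of 5 and for Dbp 1 of 5. In the mutant butyrate group, array 1 had the lowest Nr1d1 and Dbp and the highest Bmal1, Per1, Per2 and Cry1 of its 3 arrays. The wild-type butyrate array lay beyond it in the same direction for each of these 6 genes. This order was looked for after the values had been seen. The mean of acinar pancreas markers, given with the tissue markers, also differed between these arrays. On the lowest Nr1d1 array it was the group's highest on the normal diet, at 11.11 in wild type and 13.40 in mutants. The same held in the wild-type high-fat group, at 13.29, but not in the mutant high-fat group, at 5.64, or the mutant butyrate group, at 6.83. Its part in the order was not tested.

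**Figure D3:**
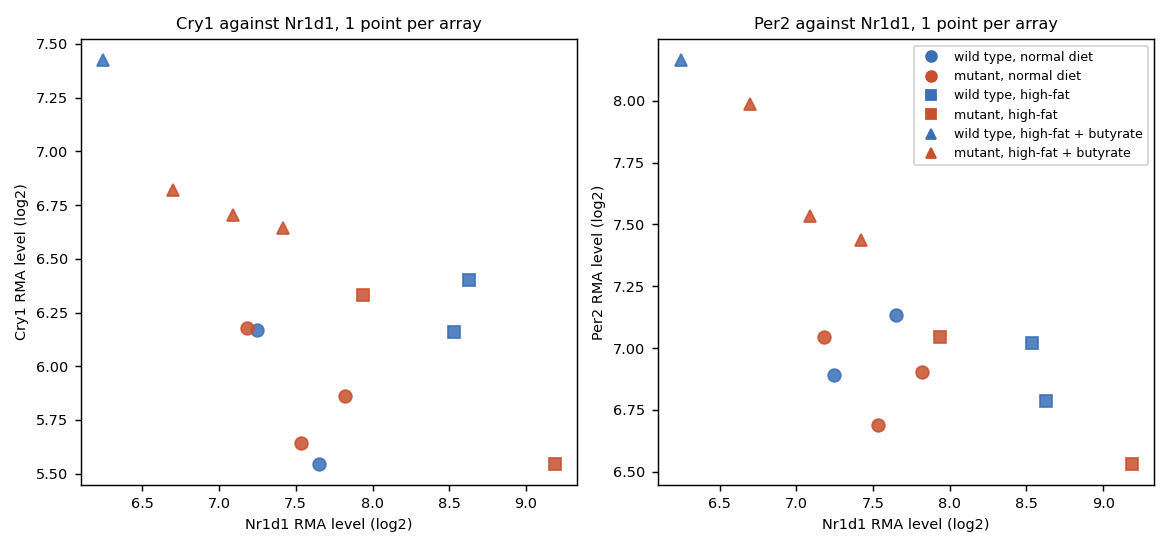
Cry1 (left) and Per2 (right) on the y axis against Nr1d1 on the x axis (log2 RMA values), 1 point per array, coloured by genotype and shaped by diet. The 4 butyrate arrays lie at the upper left, with the wild-type array farthest out at 6.25 for Nr1d1, and mutant high-fat array 1 lies at the lower right at 9.19.

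Of the genes, 6 had more than 1 probe set, 22 in all for the 10 genes, and these did not always move together. For Per2 the weaker probe set changed by -0.21 ± 0.17 (SE; limma, adjusted p = 0.434) with butyrate in mutants, against 0.87 for the one used. For Nr1d2 the weaker one changed by -0.33 ± 0.24 (SE; limma, adjusted p = 0.373), against 0.88. With the mean of its probe sets in place of the brightest, neither gene passed with butyrate, Per2 at 0.33 and Nr1d2 at 0.27 (limma, adjusted p = 0.117 and 0.198). The weaker Dbp set changed by -0.47 ± 0.28 with butyrate (SE; limma, adjusted p = 0.267), against 0.45. Between high-fat and normal diet in mutants, the weaker Nr1d2 probe set differed by 0.61 and the weaker Dbp probe set by 0.32, both opposite to the sets used. The weaker Per2 set differed by 0.42 there, against -0.09. Klf9 had 7 probe sets. Between butyrate and normal diet in mutants, its other 6 sets all differed in the direction of the set used (-1.46), but by sizes from -0.02 to -1.54. Only 1 of these 6 passed the test, a weaker set at -1.54 (limma, adjusted p = 0.00304), and the next brightest differed by -0.06 (limma, adjusted p = 0.893). For high-fat against normal diet in mutants 3 of the other 6 differed in the direction opposite to the set used. They differed by 0.65, 0.57 and 0.67 (limma, adjusted p = 0.0775, 0.0459 and 0.0173), so opposite differences passed on different sets. For butyrate added to the high-fat diet 1 of the other 6 differed in the opposite direction, by 0.48 (limma, adjusted p = 0.0698). Others passed in the direction of the set used, at -1.29, -1.33, -1.14 and -0.98 (limma, adjusted p = 0.00321, 0.00128, 0.00137 and 0.0021). For Tef, whose most abundant probe set did not move, the 2 weaker ones rose by 1.13 and 0.77 from normal to high-fat diet in mutants and fell by 0.90 and 0.72 with butyrate (limma, adjusted p = 0.00178, 0.0287, 0.00429 and 0.0326). Among called genes with several probe sets, the others went the opposite way in 26.35% of 1275 genes for butyrate and in 24.08% of 1055 for high-fat diet in mutants. Nr1d1, Cry1, Per1 and Bmal1 had 1 probe set each and allow no such check.

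**Figure D4:**
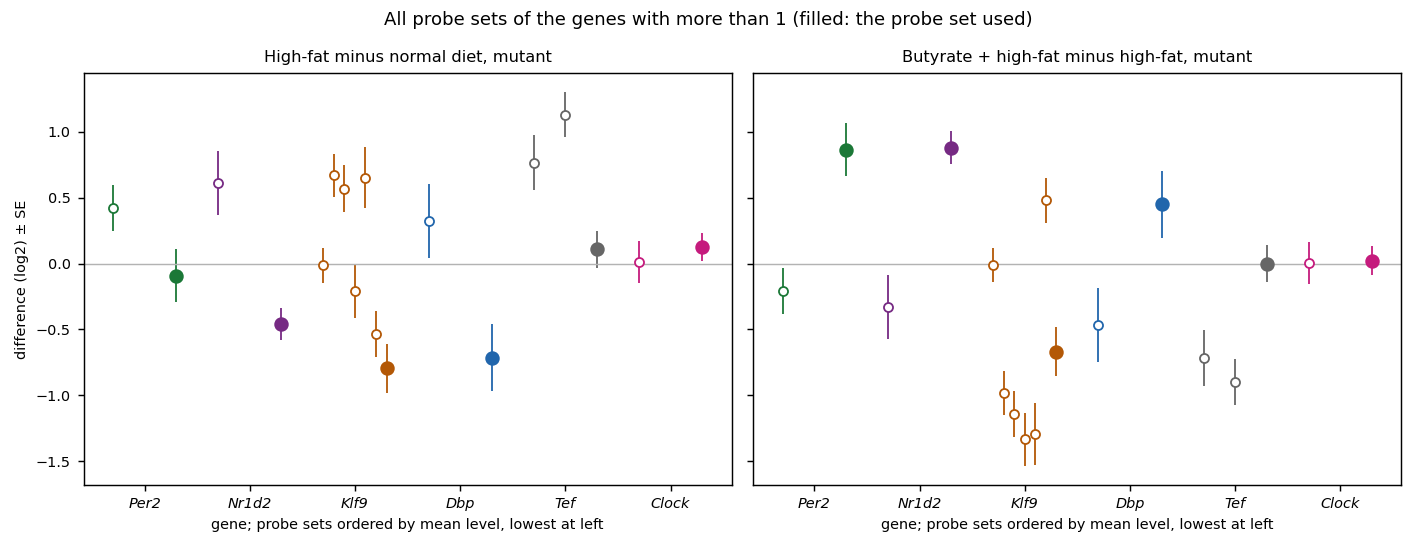
Difference of every probe set of the 6 genes with more than 1 (y axis, log2 with SE) for high-fat against normal diet (left) and butyrate added to the high-fat diet (right) in mutants; probe sets are ordered by mean level within a gene and the filled one is the set used. For Per2, Nr1d2 and Dbp the set used and the other lie on opposite sides of 0 in both panels.

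Other genes of the clock were read from a list of 21, of which 17 were measured. With butyrate added to the high-fat diet in mutants, 2 of the 17 were higher and 2 lower, beside 12.9% and 8.78% of all genes, so that the share of the list was near that of all genes. Per3, the Per family member with the mildest loss of rhythm when deleted, rose by 0.75 ± 0.20 (SE; limma, adjusted p = 0.0187). It lay at 8.0 in wild type and at 7.89, 7.69 and 8.35 in mutants on butyrate, and between 7.09 and 7.61 on the other 9 arrays. Sirt1, a deacetylase that acts on PER2 and BMAL1, rose by 0.78 ± 0.13 (limma, adjusted p = 0.00211). Gsk3b, a kinase that marks several clock proteins for turnover, fell by 1.44 on the log2 scale, with an SE of 0.13 (limma, adjusted p = 6.49e-05). Btrc, part of the ubiquitin ligase that degrades PER proteins, fell by 0.52 on the log2 scale, with an SE of 0.15 (limma, adjusted p = 0.0269). From normal to high-fat diet in mutants 2 of the 17 passed, beside 17.7% of all genes. Nfil3, a repressor of D-box genes, rose by 1.33 ± 0.41 and Gsk3b by 0.67 ± 0.13 (SE; limma, adjusted p = 0.0441 and 0.00569). Between butyrate and normal diet, where 1.57% of all genes passed, Gsk3b was the 1 of the 17 that did, at -0.76 ± 0.12 (SE; limma, adjusted p = 0.0105). Npas2, which can stand in for Clock, lay at 7.12 in wild type and at 6.55, 5.60 and 6.34 in mutants on butyrate, against 5.14 to 5.84 on the other 9 arrays, and passed in no comparison. The median difference with butyrate was 0.02 over these 17 genes and 0.02 over all genes. None of the 17 passed in wild type between diets or for pooled genotype (limma; 3 and 3 at an unadjusted p under 0.05), and in the latter the smallest pooled adjusted p was that of Hlf, a PAR bZIP relative of Dbp and Tef (limma, -0.78 ± 0.22, adjusted p = 0.0928).

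Outputs tied to the clock in the gut or liver were read from a list of 16, of which 13 were measured. With butyrate added to the high-fat diet in mutants 2 of the 13 were higher and 2 lower, beside 12.9% and 8.78% of all genes. Ppara, the nuclear receptor that drives fatty acid oxidation and is itself a target of CLOCK, differed most of the list with butyrate. It lay at 7.45 and 7.27 on wild-type and 7.21, 7.56 and 8.04 on mutant normal-diet arrays, at 8.05 and 7.94 on wild-type and 8.31 and 9.11 on mutant high-fat arrays, and at 6.55 in wild type and 6.07, 6.41 and 5.87 in mutants with butyrate. The butyrate arrays were all below the other 9, and the share of all genes with this order was not counted. In mutants it rose by 1.11 ± 0.27 with the high-fat diet and fell by 2.59, with an SE of 0.27, when butyrate was added (limma, adjusted p = 0.0159 and 1.38e-04). It was also lower on butyrate than on normal diet, by -1.48 ± 0.24 (limma, adjusted p = 0.0148). Noct, a rhythmic phosphatase that acts on nicotinamide cofactors, rose by 1.08 ± 0.32, and Slc2a2, the basolateral glucose transporter, rose by 0.73 ± 0.23 with butyrate in mutants (limma, adjusted p = 0.0338 and 0.0413). Usp2, a clock-driven ubiquitin protease, fell by 0.62 with an SE of 0.17 in that comparison (limma, adjusted p = 0.0236).

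Usp2 and Alas1 were the genes of these lists that differed by genotype, where 1.02% of all genes did, and both lay near the threshold. Usp2 was lower in mutants by -0.61 ± 0.10 and Alas1, the entry enzyme of haem synthesis, was higher by 0.51 ± 0.11 (SE; 8 against 5 arrays; limma with diet as a term, adjusted p = 0.0355 and 0.0477). Usp2 lay at 9.83 and 9.90 on wild-type against 9.09, 9.46 and 9.13 on mutant normal-diet arrays, and at 10.15 and 9.98 against 9.31 and 9.57 on high-fat arrays. Under butyrate it was at 9.37 in wild type and at 9.14, 8.57 and 8.74 in mutants. The genotypes did not overlap within any diet, though the share of all genes so separated was not counted. Alas1 lay at 9.30 and 9.12 against 9.75, 9.99 and 10.04 on the normal diet, at 9.73 and 9.77 against 9.75 and 10.40 on the high-fat diet, and at 9.19 against 9.56, 9.79 and 9.54 with butyrate, so the genotypes overlapped on the high-fat diet. Leaving out 1 array at a time, Usp2 passed in 4 of 13 fits and Alas1 in 3 of 13 (limma, adjusted p up to 0.0831 and 0.116), while the differences ran from -0.66 to -0.58 and from 0.45 to 0.62. Of 9 other settings, Usp2 passed in 6 and Alas1 in 2. With the mean of probe sets neither passed (limma, adjusted p = 0.0533 for Usp2 and 0.0846 for Alas1). Like Usp2, 3 of 7 macrophage markers were lower in mutants, as given with the tissue markers. In wild type Wee1, the kinase that delays entry into mitosis, was higher on the high-fat than on the normal diet by 0.45 ± 0.11 (limma, adjusted p = 0.0293). Slc2a5, the fructose transporter, was lower there by 1.93-fold, a difference of -0.95 ± 0.17 (limma, adjusted p = 0.00694).

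Per1 and Klf9 are also induced by glucocorticoids, and genes that answer to glucocorticoids and to acute stimuli were read from lists of 13 and 10, all measured. Of the glucocorticoid-induced genes 0 passed from normal to high-fat diet in mutants (limma; 1 at an unadjusted p under 0.05), where 17.7% of all genes did, and 1 of 13 passed with butyrate in mutants, where 21.7% did. It was Cdkn1a, a cell-cycle inhibitor, at -0.82 ± 0.20 (limma, adjusted p = 0.0129). None of the 13 passed in wild type between diets, between butyrate and normal diet or by pooled genotype (limma; 4, 2 and 2 at an unadjusted p under 0.05). By array, however, 6 of the 13 had their 2 highest levels on the wild-type butyrate array and mutant butyrate array 1, as 5.3% of all genes did, a count made after the values were seen. Fkbp5, a chaperone of the glucocorticoid receptor, lay at 9.97 and 10.49 on these 2 arrays and at 9.62 or less on the other 11. Zbtb16, a zinc-finger repressor, lay at 6.06 and 6.74 there against 5.12 or less. The other 4 were Tsc22d3, Sgk1, Dusp1 and Ddit4. Genes of the same list also went the other way. Mt2 had its 2 lowest levels on this pair of arrays, at 9.01 and 8.60. Mt1 was lowest on the wild-type butyrate array, at 10.84, though not on mutant butyrate array 1, at 12.48. The pair holds the highest Per1, Per2 and Cry1 and the lowest Nr1d1 of the butyrate diet. Of the immediate early genes 3 of 10 rose with the high-fat diet in mutants, beside 7.67% of all genes. These were Junb by 1.42 ± 0.18, Jun by 0.73 ± 0.20 and Zfp36 by 0.51 ± 0.12 (limma, adjusted p = 6.98e-04, 0.0314 and 0.0162). Junb and Jun, subunits of the AP-1 factor, also rose in wild type, by 1.35 ± 0.19 and 0.90 ± 0.22 (limma, adjusted p = 0.00212 and 0.0279). With butyrate in mutants 3 of 10 were lower, beside 8.78% of all genes. Junb fell by 1.62 with an SE of 0.18, Jun by 0.71 with an SE of 0.20 and Ier2 by 0.48 with an SE of 0.14 (limma, adjusted p = 1.93e-04, 0.0301 and 0.0275). Junb lay between 8.47 and 8.87 on the 4 high-fat arrays, above the other 9 as Nr1d1 did, and its lowest array was the wild-type butyrate one at 6.37, also as for Nr1d1. Their part in the differences of the 10 genes was not tested.

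The genes most like each of the 10 were sought by Pearson's r over the 13 arrays among 8665 genes above the 30th percentile of mean level. The arrays share diet, array series and genotype, so r over arrays mixes differences between groups with differences within them, and the r of deviations from group means is given beside it. Nr1d1 was most like Lipg, the endothelial lipase (r = 0.96, Spearman's rho = 0.94, deviations 0.85). Cry1 was most like Smim10l1 (r = 0.97, rho = 0.98, deviations 0.95), whose levels ran from 7.80 on mutant high-fat array 1 to 8.89 on the wild-type butyrate array. Per2 was most like Rnf13, a ubiquitin ligase of endosomes (r = 0.96, rho = 0.85, deviations 0.81). Nr1d2 was most like Ndufa4, a subunit of the respiratory chain (r = 0.98, rho = 0.97, deviations 0.84). Clock was most like Tnpo1, a nuclear import receptor (r = 0.97, rho = 0.94, deviations 0.90). Klf9 was most like Tmem242 (r = 0.92, rho = 0.92, deviations 0.62), Per1 most like Hepacam2 (r = 0.90, rho = 0.84, deviations 0.85) and Tef most like Nrep (r = 0.85, rho = 0.74, deviations 0.87). For Dbp the highest r were those of Noc4l at 0.81, Cuta at 0.80 and Pebp1 at 0.80 (deviations 0.93, 0.52 and 0.89), and the lowest were those of Rhou at -0.87, Stk24 at -0.85 and Sowaha at -0.83 (deviations -0.87, -0.80 and -0.56). For Bmal1 the highest were Tmed7 at 0.91, Clint1 at 0.88 and Sbno1 at 0.86 (deviations 0.82, 0.63 and 0.61), and the lowest were Serf2 at -0.88, Scand1 at -0.87 and Lamtor2 at -0.85 (deviations -0.81, -0.76 and -0.55). No gene of the 10 was itself a candidate.

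The tissue carried its defining markers. All 10 markers of duodenal epithelium were measured, with Vil1, the villin of the brush border, between 11.8 and 12.3 on every array. The mean of that list was 10.96 to 11.06 on the mutant high-fat arrays, 10.42 to 10.64 on the wild-type high-fat arrays and 9.94 to 10.57 on the others. Much of that spread was Cybrd1, the duodenal iron reductase, whose mean was 6.27 on mutant normal-diet, 10.6 on mutant high-fat and 6.81 on mutant butyrate arrays, whereas Fabp1 lay between 13.5 and 13.8 and Fabp2 between 13.4 and 13.8 on every array. Gata4, Slc40a1 and Pdx1 also had higher means on mutant high-fat than on mutant normal-diet arrays. These were 9.26 against 8.42, 11.58 against 10.41 and 8.22 against 7.54, while Cdx1 had a mean of 8.21 on both. Acinar pancreas, which borders the duodenum, varied most between arrays, with a list mean of 5.64 to 13.40 over 14 of 17 markers. It ran from 5.64 to 10.71 on mutant high-fat, 5.72 to 10.96 on mutant butyrate and 6.28 to 13.40 on mutant normal-diet arrays, and in wild type from 11.30 to 13.29 on the high-fat and 6.50 to 11.11 on the normal diet, with 11.93 on butyrate. With this mean as a covariate, Nr1d1, Nr1d2, Per2 and Klf9 still passed with butyrate in mutants and Cry1 did not (limma, adjusted p = 0.0547). Nr1d1 between high-fat and normal diet in mutants did not pass either (limma, adjusted p = 0.0613). The mean of 5 of 6 proliferation markers was 7.87 to 8.11 on mutant high-fat arrays, against 8.36 to 8.51 on mutant butyrate and 8.38 to 8.50 on mutant normal-diet arrays. The mean of all 7 macrophage markers was 7.02 to 7.75, 7.80 to 8.52 and 7.66 to 7.86 on the same groups. In wild type it was higher, 8.43 to 8.65 on the high-fat and 8.55 to 8.92 on the normal diet and 8.53 on butyrate. Of these markers Lyz2, C1qb and Aif1 were lower in mutants by pooled genotype, at -1.28, -0.73 and -0.86 (limma, adjusted p = 0.0412, 0.0465 and 0.0404). The mean of all 6 T cell markers was 7.96 to 8.23 in wild type and 7.01 to 7.19 in mutants on the normal diet, 7.07 to 7.71 and 6.56 to 7.0 on the high-fat diet, and 7.03 and 6.73 to 7.77 with butyrate. On the normal and on the high-fat diet the genotypes did not overlap in the macrophage or the T cell mean. Nor did they for Usp2 or, on the probe set used, for Clock, and the share of all genes so separated was not counted. The part of the proliferation, macrophage and T cell lists in the results was not tested. In tissue RNA, fewer cells of a type and less RNA per cell cannot be told apart.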

How the data were processed

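Total RNA (200 ng, biotin-labelled) from duodenum was hybridised to 13 Affymetrix arrays. The deposited log2 values were made by the authors with Affymetrix Expression Console 1.1 and, per the submitters' processing notes, by RMA, which corrects background, equalises distributions and summarises probes. Per the labels, samples were prepared with a kit meant for whole-transcript arrays, although the probe sets carry names of a 3' array design, so which chemistry was used is unsure. A genome build was not given in any source used here. Array medians ran from 6.04 to 6.14, and at most 408 of 22690 values were equal to 3 decimals in any pair of arrays, so none was taken for a copy.

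Genotype and diet, as labelled, defined the groups. The series text calls the samples mice but does not say more, so a p-value measures only how far these samples spread, which may be technical. Of the 22690 probe sets, 20380 had exactly 1 gene symbol. They cover 12393 genes, and a gene's brightest set by mean was tested, two-sided, with limma 3.58.1 in R 4.3.3 (lmFit, contrasts.fit, then eBayes allowing an intensity trend). Benjamini-Hochberg adjustment ran over all genes at 0.05. All 13 arrays entered each fit as 6 group means or, for pooled genotype, with diet as a term. Every adjusted p comes from limma, and the procedure was tested on simulated data.

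The 10 genes and all lists were chosen with earlier results of these data known. Named from the lists were genes past the threshold and, where none passed, up to 4 with the smallest p; Npas2 and Usp2's levels within diets were added after their values were seen. The gene most like each of the 10 was taken by the highest r, with the 3 highest and 3 lowest for Dbp and Bmal1. Alternatives were another quantile normalization, dropping genes whose mean level is under the 30th percentile, averaging all probe sets of a gene, each other probe set, no intensity trend, array weights, the replicate number as a block, the acinar pancreas mean as a covariate, the compared groups alone and leaving out each array. For pooled genotype they were also each diet weighted equally and no butyrate arrays. The tests of genotype differences between butyrate and the other diets, the shares of genes with arrays of 1 diet apart, the agreement of probe sets, the order of arrays within groups and the count of glucocorticoid-induced genes highest on a pair of butyrate arrays were added after the data were seen. Replicate numbers were not taken as pairs. Differences between genes on the same array were not computed, since levels of different probe sets are not on 1 scale.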

Additional observations from a re-analysis of the deposited data

Results flagged for a closer look

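For 3 genes the genotype difference had opposite signs on different diets, with no overlap between the genotypes' arrays in either. The share of all genes that meet this rule was not counted, so the 3 are given as a description only. Dbp differed by -0.54 between mutant and wild-type arrays on the high-fat diet and by 0.77 on the high-fat diet with butyrate. Bmal1 differed by 0.49 on the high-fat diet and by -0.90 with butyrate. Clock differed by 0.40 on the normal diet, by 0.24 on the high-fat diet and by -0.31 with butyrate. On its weaker probe set the genotypes overlapped on the normal diet. The difference between genotype effects was then tested for all genes, a test added after these values were seen. Butyrate against high-fat diet gave 1.32 ± 0.43 for Dbp, -1.39 ± 0.38 for Bmal1 and -0.55 ± 0.18 for Clock (SE; limma, adjusted p = 0.801, 0.742 and 0.801), with unadjusted p of 0.0101, 0.00378 and 0.0107, where 5.55% of all genes had one under 0.05. Butyrate against normal diet gave -0.71 ± 0.17 for Clock, -1.05 ± 0.37 for Bmal1 and -0.76 ± 0.30 for Klf9 (SE; limma, adjusted p = 0.631, 0.631 and 0.636), with unadjusted p of 0.00172, 0.0156 and 0.0262, where 7.51% of all genes had one under 0.05. None passed the threshold, and each rests on the 1 wild-type butyrate array. That array also had the highest Per1, Per2 and Cry1 and the lowest Nr1d1 of all 13, though the share of all genes at an extreme on it was not counted.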

How the results depend on the processing

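With 2 or 3 arrays a group, the counts of the 10 genes that passed depended on single arrays. Leaving out each array gave 0 to 1 for high-fat against normal diet in wild type (0 with all arrays), 1 to 4 for the same in mutants (3), 1 to 5 for butyrate added to the high-fat diet in mutants (5) and 1 to 3 for butyrate against normal diet in mutants (1). The butyrate count was 1 without mutant high-fat array 1 and 3 without mutant butyrate array 2. It was 3 with the compared groups alone. Array weights gave 4 for butyrate against normal diet. No genotype count moved from 0 in any setting run. Nr1d2 with butyrate and Klf9 between butyrate and normal diet passed in 13 of 13 fits that left out an array, though Nr1d2 did not with the mean of its probe sets (0.27; limma, adjusted p = 0.198), Cry1 with butyrate in 5 of 13 and Nr1d1 between high-fat and normal diet in 4 of 13. The cause of these shifts was not tested.

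Over all genes the calls moved more. Leaving out an array gave 2 to 329 for pooled genotype (127), 439 to 1522 for the high-fat diet in wild type (1368), 990 to 2579 in mutants (2197), 1317 to 3085 for butyrate in mutants (2685) and 39 to 627 for butyrate against normal diet (195). The lowest and highest of the other settings were 5 and 574, 116 and 1553, 1600 and 3046, 1801 and 3070, and 63 and 623 in the same order. Within the normal diet the genotype count of 3 ranged from 0 to 174, and within the high-fat diet that of 5 ranged from 3 to 105.

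The choice of probe set reversed several differences. Averaging all probe sets of a gene gave 0.23 for Klf9 between high-fat and normal diet in wild type, and 0.048 for Klf9 and 0.076 for Nr1d2 in mutants. Other probe sets gave 0.84, 0.43 and 1.44 for Klf9 in wild type and 0.65, 0.57 and 0.67 for Klf9, 0.61 for Nr1d2 and 0.32 for Dbp in mutants. With butyrate in mutants they gave -0.21 for Per2, -0.33 for Nr1d2, 0.48 for Klf9 and, for Dbp, which did not pass, -0.47. With each array left out, Tef ranged from -0.021 (without wild-type normal-diet array 2) to 0.40 for the high-fat diet in wild type, and from -0.070 to 0.033 (without mutant butyrate array 1 or 2) for butyrate in mutants, where array weights gave 0.012. Of 81 differences of the 10 genes that did not pass, 46 changed sign in some setting.

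With the replicate number as a block, 1 of the 10 genes passed between high-fat and normal diet in mutants instead of 3. Same-numbered arrays of compared groups deviated with r from -0.33 to 0.42, so the numbers were not taken as pairs. The genotype comparison on butyrate was not run without its 1 wild-type array.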
